A study of Mus musculus with 11 samples.

Results

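The fibroblast growth factor (FGF) pathway was followed here through 8 genes measured in mouse liver: the binding protein Fgfbp1, the ligands Fgf1 and Fgf21, the receptors Fgfr1, Fgfr2, Fgfr3 and Fgfr4, and the co-receptor Klb. The genes were selected on earlier results of these livers, in which Fgfbp1 stood out for its level after 7 days, and each was found by its symbol as 1 row of a table of 20893 genes. All 8 passed the filter on low values, which asked for 0.5 eRPKM or more in 3 or more livers and kept 14240 genes. The unit eRPKM is the authors' read count scaled to exon length and library size. Levels can thus be set against each other between genes and between livers, within the limits of depth given below. For the abundant Alb and Apoa1 reads hardly followed depth, as given below, so their levels cannot be compared in this way. Whether the same holds for Fgfbp1 at 7 days was not tested.

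The series comprised 11 C57BL/6 mouse livers, and the question behind it was how the liver transcriptome changes in the first days after the transcriptional co-activator YAP is switched on. Control livers (n = 4, labelled ROSA26-rtTA-IRES-EGFP; WT) had received 7 days of doxycycline food and carried no YAP transgene by their label. The 3-day livers (n = 4) and 7-day livers (n = 3) were labelled ROSA26-rtTA-IRES-EGFP; tetYAP and had received doxycycline food for that time. All 3 groups thus shared the transactivator line and the drug, while the control and 3-day groups differed in time on the drug as well as in genotype, which cannot be told apart. By the study's methods the transactivator is floxed and is activated by Cre under the albumin promoter, which restricts the transgene to cells with an albumin-Cre history (hepatocytes above all), and the transgene is a YAP mutant that escapes an inhibitory phosphorylation. The labels name no Cre, no age and no sex.

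FGF ligands are secreted proteins that bind receptor tyrosine kinases at the cell surface together with heparan sulfate, and the receptors then signal through adaptor proteins and the RAS-ERK cascade to feedback genes of the Sprouty, Dusp and Etv families. Most ligands stay trapped on the heparan sulfate of the matrix, and Fgfbp1 is a secreted carrier that releases them. In hepatocytes FGFR4 with the co-receptor KLB receives the intestinal hormone FGF15 and represses bile acid synthesis, and FGF21 is a hormone made by the liver that also needs KLB.

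RefSeq promoter sequence (build GRCm38.p6, 250 bases before to 50 bases after a start site) was matched by symbol for 6 of the 8 genes, as 7 promoters. They are shown because YAP acts on DNA through TEAD factors and because Fgf21 is known for an amino acid response element. Motifs searched on both strands were the TEAD core GGAATG, the AP-1 motif TGANTCA and the response element TTGCATCA, which do not overlap one another in these promoters. Capitals mark a match, and the bases run 5′ to 3′ on the gene's strand. The 250 bases before the Fgfbp1 start site (chr5:43981800-43982049, minus strand), the 250 before that of Fgf21 (chr7:45615491-45615740, minus strand) and 30 bases each of Klb (chr5:65348431-65348460, plus strand) and Fgfr4 (chr13:55152808-55152837, plus strand) read as follows.
Fgfbp1: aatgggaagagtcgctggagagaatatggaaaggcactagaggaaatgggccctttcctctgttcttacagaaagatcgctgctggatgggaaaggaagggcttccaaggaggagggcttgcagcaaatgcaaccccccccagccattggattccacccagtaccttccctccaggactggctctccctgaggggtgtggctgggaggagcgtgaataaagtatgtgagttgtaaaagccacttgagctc
Fgf21: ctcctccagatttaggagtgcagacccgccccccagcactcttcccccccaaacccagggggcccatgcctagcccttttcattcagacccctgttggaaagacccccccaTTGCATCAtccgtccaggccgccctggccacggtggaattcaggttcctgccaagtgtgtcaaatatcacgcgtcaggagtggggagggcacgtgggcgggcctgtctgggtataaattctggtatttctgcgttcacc
Klb: cagggtctccggGGAATGaatggattttct
Fgfr4: cagttgcagggaCATTCCtggctcttcggc

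Of these promoters Klb and Fgfr4 each held 1 TEAD core, at 32 to 37 and at 2 to 7 bases after the first base of the transcript respectively, and 14.6% of 32544 distinct mouse promoters of the same length held one. Fgf21 held the response element, 139 to 132 bases before the start site, which 0.867% of all promoters did. The AP-1 motif, held by 7.79% of promoters, was found in none of the 7, and the Fgfbp1 window held none of the 3 motifs. A match of letters is a description of the sequence and was not tied to any measurement here.

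The libraries held between 1251396 (control liver 4) and 5941357 reads on genes (7-day liver 2), as read from the steps of the deposited values. The groups differed in depth, with a highest control of 5495697, a highest 3-day liver of 3681416 and 5312486 to 5941357 at 7 days. By Xist and the Y-linked Ddx3y, 2 control, 2 3-day and all 3 of the 7-day livers were female, so sex and 7 days of YAP are partly mixed. Values within female livers are given beside the results of Fgfbp1, Fgf1, Fgf21, Fgfr1, Fgfr4 and Klb, but not for every gene. For the pathway genes they are given as counts of calls, and for the markers not at all. Yap1 was at 13.9 to 21.1 eRPKM in controls and 17.4 to 19.0 at 7 days. Whether reads of the transgene are counted there is not given in the sources used here, so Yap1 checks no label. The livers were numbered as replicates without a statement that each came from a separate mouse, so p-values measure the spread between these livers. A liver is a mixture of cells, in which fewer cells of a type and less RNA per cell cannot be told apart.

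Fgfbp1 was low in the 8 control and 3-day livers, with more than 3 reads in 2 of them (control liver 4 and 3-day liver 3), and it became the most abundant of the 8 transcripts at 7 days. Its level was 0.215, 0, 0 and 5.35 eRPKM in control livers 1 to 4, from 1, 0, 0 and 8 reads. In the 3-day livers it was 0, 0, 2.73 and 0.682 eRPKM, from 0, 0, 12 and 3 reads, and in the 7-day livers it was 159, 124 and 146 eRPKM, from 1019, 883 and 929 reads. Every 7-day liver thus lay above every other liver, and the lowest of them was 23.2 times the highest control and 45.5 times the highest 3-day liver. A count of 0 allows up to 3 reads, which correspond to 0.457 to 1.04 eRPKM in the 4 livers at 0 (counting error only).

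On the log2(eRPKM + 0.5) scale, which understates changes of low genes, the 7-day livers differed from controls by 7.14 (SE 0.82) and from 3-day livers by 7.18 (SE 0.82). No test is given for either value, since Fgfbp1 was chosen on its 7-day level. Between 3-day and control livers the difference was -0.03 (95% interval -1.67 to 1.60), with an adjusted p of 0.991 in limma over all 14240 genes. In female livers alone the 3-day value was 1.97, from 2 controls at 0 and 3-day livers at 0.682 and 2.73 eRPKM (adjusted p = 0.166 in limma).

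The control mean of 1.39 eRPKM rested on control liver 4, the shallowest library, and was 0.0716 eRPKM without it. In that liver Fgfbp1 stood at 3.74% of the 7-day mean. Xist, which female livers held at 78.5 to 133 eRPKM, was at 3.12 eRPKM in this liver, or 3.61% of its 7-day mean, while Ddx3y was at 67.3 eRPKM. Xist was at 0.153 eRPKM in the other male control and at 1.58 and 0.298 eRPKM in the male 3-day livers. The part of any RNA from another library in the value of control liver 4 was not tested.

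**Figure D1:**
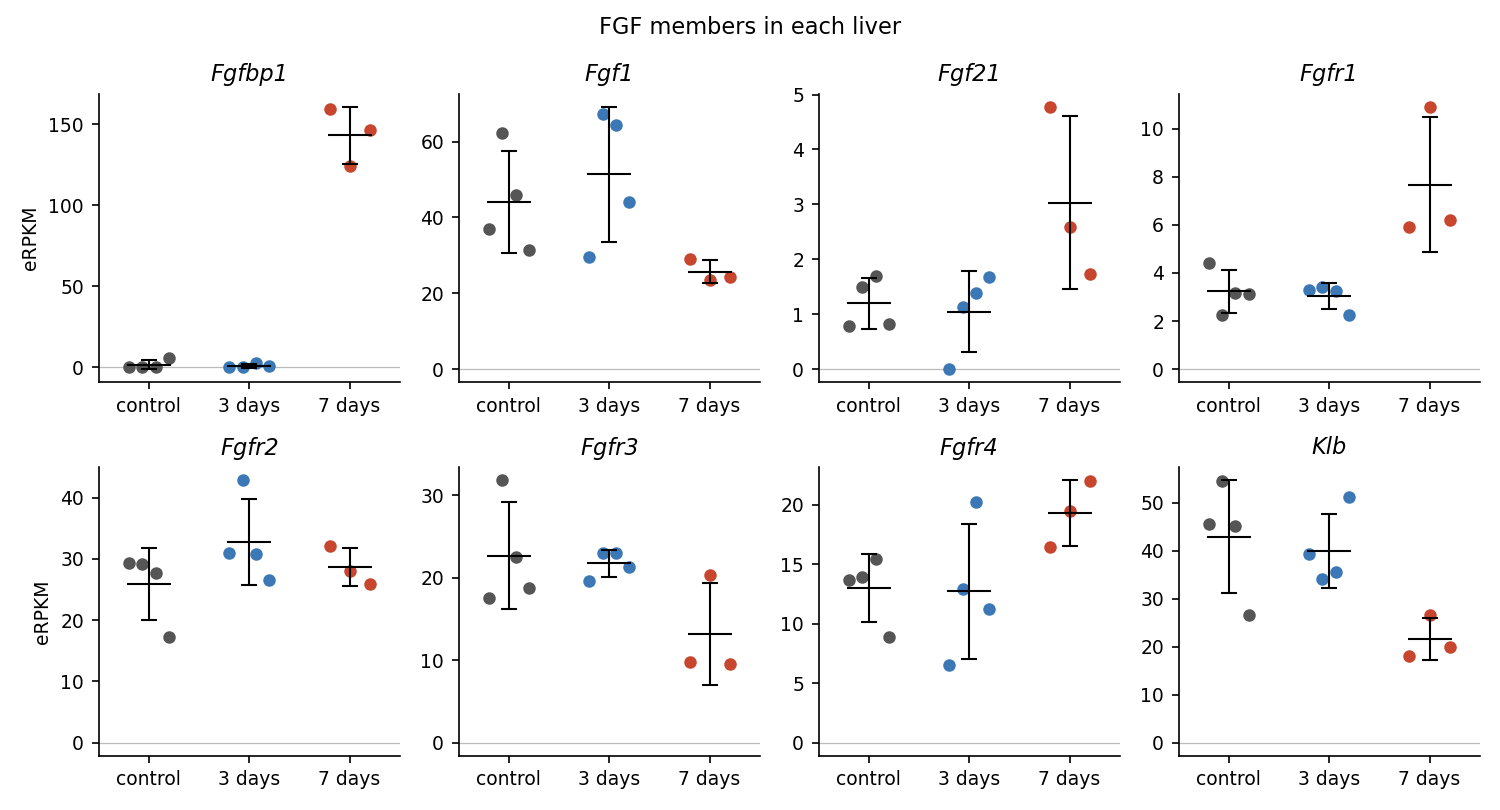
Level of each of the 8 FGF genes (eRPKM, linear axis) in 4 control, 4 3-day and 3 7-day livers. Points are livers, the long tick is the group mean and the bars are 1 SD. Fgfbp1 is at 124 to 159 eRPKM at 7 days against at most 5.35 elsewhere, while Fgf1 and Klb lie lower at 7 days and Fgfr2 overlaps in all groups.

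In levels, the order of the 8 genes was the same at its top in control and 3-day livers and was different at 7 days. In controls Fgf1 (44.2 ± 13.4 eRPKM, SD, n = 4) and Klb (43.0 ± 11.8) led, followed by Fgfr2 (25.9 ± 5.81), Fgfr3 (22.7 ± 6.49), Fgfr4 (13.0 ± 2.85), Fgfr1 (3.24 ± 0.891), Fgfbp1 and Fgf21 (1.20 ± 0.466). Neighbours in that order overlapped between livers except at 2 steps, Fgfr3 above Fgfr4 and Fgfr4 above Fgfr1. At 7 days Fgfbp1 came first at 143 ± 17.7 eRPKM (SD, n = 3), without overlap with Fgfr2 in second place at 28.6 ± 3.14, and the run from Fgfr2 through Fgf1, Klb, Fgfr4 and Fgfr3 to Fgfr1 overlapped at each step.

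At 3 days none of the 8 genes was called different from controls, and all 8 overlapped them, beside 5.64% of all genes that did not overlap. A call needed an adjusted p under 0.01 (limma, Benjamini-Hochberg over all genes) and a log2 fold change beyond 0.5. Across all genes 0.0421% were called higher and 0% lower at 3 days, or 6 and 0 genes, while 1718 had an unadjusted p under 0.05. The adjusted p of the 8 genes lay between 0.508 for Fgfr2 and 0.991 for Fgfbp1. Fgfr2 had the largest difference of the receptors, 0.34 with a 95% interval of -0.08 to 0.77, and the interval of Klb ran from -0.55 to 0.40.

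Against controls, 7-day livers passed the call limits for 3 of the 8 genes, Fgfbp1 and Fgfr1 above and Klb below, beside 18.0% of all genes above and 5.77% below. Livers did not overlap for 6 of the 8, all but Fgfr2 and Fgfr3, beside 50.0% of all genes tested. Because the genes were chosen with this contrast in view, these counts describe them and carry no test. The median of all genes was itself 0.26 higher at 7 days on the log2 scale, and 75.7% of the calls were higher. With median-ratio size factors the median fell to 0.03 and the share to 60.9%, and with quantile normalization to -0.06 and 51.1%. Of the 8 genes only Fgfr2 changed sign with these scalings.

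Against 3-day livers, 14.0% of all genes were called higher and 5.31% lower at 7 days, and of the 7 FGF genes tested here Fgfr1 was called higher and none lower. Fgfbp1 was left out of this count, having been chosen on its 7-day level. Livers of the groups did not overlap for 5 of the 8, namely Fgfbp1, Fgf1, Fgf21, Fgfr1 and Klb, beside 45.1% of all genes. The 7-day livers are shared with the contrast against controls, and the tests below are not independent of it.

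Fgf1, a broad ligand that binds every FGF receptor, had its lowest levels in the 7-day livers. It was measured at 37.0, 62.3, 45.8 and 31.5 eRPKM in controls, at 29.6, 67.4, 64.5 and 44.0 in 3-day livers and at 29.1, 23.4 and 24.3 in 7-day livers. All 7-day livers were below all others, but by a small margin, since 3-day liver 1 was at 29.6 and 7-day liver 1 at 29.1. The difference from controls was -0.73 (SE 0.28) on the log2 scale. From 3-day livers it was -0.92 (SE 0.28), with an adjusted p of 0.0240 in limma, which missed the call limit of 0.01, and an exact permutation p of 0.0571 (two-sided; 0.0286 is the smallest that these group sizes allow). With median-ratio size factors it was -1.16 (adjusted p = 0.00381 in limma) and passed, and within female livers it was -1.05 (adjusted p = 0.0106).

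Fgf21, the endocrine ligand of the fasting and stressed liver, was a low transcript in every group. Controls had 0.789, 1.49, 1.70 and 0.819 eRPKM, 3-day livers 0, 1.13, 1.39 and 1.67, and 7-day livers 4.78, 2.58 and 1.74, from at most 8, 6 and 25 reads per liver respectively. The lowest 7-day liver, at 1.74, lay just above the highest control and 3-day livers. The difference between 7-day and 3-day livers was 1.29 (SE 0.48, adjusted p = 0.0510 in limma, exact permutation p = 0.0571) and was not called. Among female livers it was 0.71 (adjusted p = 0.207), since female controls and female 3-day livers held 1.39 to 1.70 eRPKM and males 0 to 1.13.

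Fgfr1, the receptor most used outside hepatocytes, rose between 3 and 7 days. Its level was 4.41, 2.24, 3.18 and 3.14 eRPKM in controls, 3.29, 3.40, 3.25 and 2.23 in 3-day livers and 5.93, 10.9 and 6.19 in 7-day livers. All 7-day livers exceeded all others, and 7-day liver 2 was set apart from the other two. The rise over 3-day livers was 1.17 (95% interval 0.57 to 1.77, adjusted p = 0.00681 in limma), the exact permutation p was 0.0286, and the difference from controls was 1.11 (SE 0.28). The call was lost in 14 of 27 alternative settings, including median-ratio size factors (0.94, adjusted p = 0.0170), quantile normalization (0.55, adjusted p = 0.16), female livers only (1.30, adjusted p = 0.0247) and the fit without 7-day liver 2 (0.90, adjusted p = 0.0411). The direction was kept in all 27.

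Fgfr2, the receptor whose splice forms serve epithelium and mesenchyme, did not separate the groups. It was at 29.3, 29.2, 27.7 and 17.2 eRPKM in controls, 31.0, 42.8, 30.7 and 26.5 at 3 days and 32.0, 28.0 and 25.9 at 7 days. The difference of 7-day from 3-day livers was -0.18 (95% interval -0.63 to 0.28, adjusted p = 0.540 in limma). That from controls was 0.17 (SE 0.21), and was -0.10 with size factors and -0.05 with quantile normalization.

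Fgfr3, the receptor best known for restraining bone growth and also made by hepatocytes, was lower in 2 of the 3 7-day livers. Its level was 17.6, 31.9, 22.6 and 18.7 eRPKM in controls and 19.6, 23.0, 23.0 and 21.3 at 3 days, against 9.72, 20.3 and 9.56 at 7 days. Livers 1 and 3 lay below all others and liver 2 within the range of the controls. The difference from 3-day livers was -0.78 (SE 0.26, adjusted p = 0.0343 in limma, exact permutation p = 0.0571) and was not called, and without 7-day liver 2 it was -1.13 (adjusted p = 0.00476). From controls it was -0.81 (SE 0.26).

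Fgfr4, the main FGF receptor of hepatocytes, was at 13.6, 13.9, 15.5 and 8.89 eRPKM in controls, at 6.54, 12.9, 20.2 and 11.3 in 3-day livers and at 16.5, 19.4 and 22.0 in 7-day livers. The 7-day livers were above every control, but 3-day liver 3, at 20.2, lay among them. Female controls were at 13.9 to 15.5 eRPKM and male controls at 8.89 to 13.6. Female 3-day livers were at 11.3 to 20.2 and male 3-day livers at 6.54 to 12.9, and all 7-day livers were female. The difference from 3-day livers was 0.68 (95% interval 0.01 to 1.34, adjusted p = 0.102 in limma, exact permutation p = 0.143) and was not called, and that from controls was 0.57 (SE 0.31), or 0.31 with size factors and 0.22 with quantile normalization.

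Klb, the membrane co-receptor (beta-Klotho) of Fgfr4 and Fgfr1, was 1.93-fold lower than controls at 7 days on the log2(eRPKM + 0.5) scale. Controls held 45.6, 54.7, 45.1 and 26.6 eRPKM, 3-day livers 39.3, 34.2, 35.6 and 51.2, and 7-day livers 18.2, 26.6 and 20.03. The 7-day livers lay below all 3-day livers, and 7-day liver 2, at 26.56 eRPKM, was just below the lowest control, at 26.62. The difference from controls was -0.95 (SE 0.24). From 3-day livers it was -0.88 (95% interval -1.39 to -0.37, adjusted p = 0.0127 in limma, exact permutation p = 0.0286), short of the call limit. It passed in 7 of 27 alternatives, among them size factors (-1.12, adjusted p = 0.00106) and quantile normalization (-0.98, adjusted p = 0.00268), and was -0.99 in female livers (adjusted p = 0.0159).

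**Figure D2:**
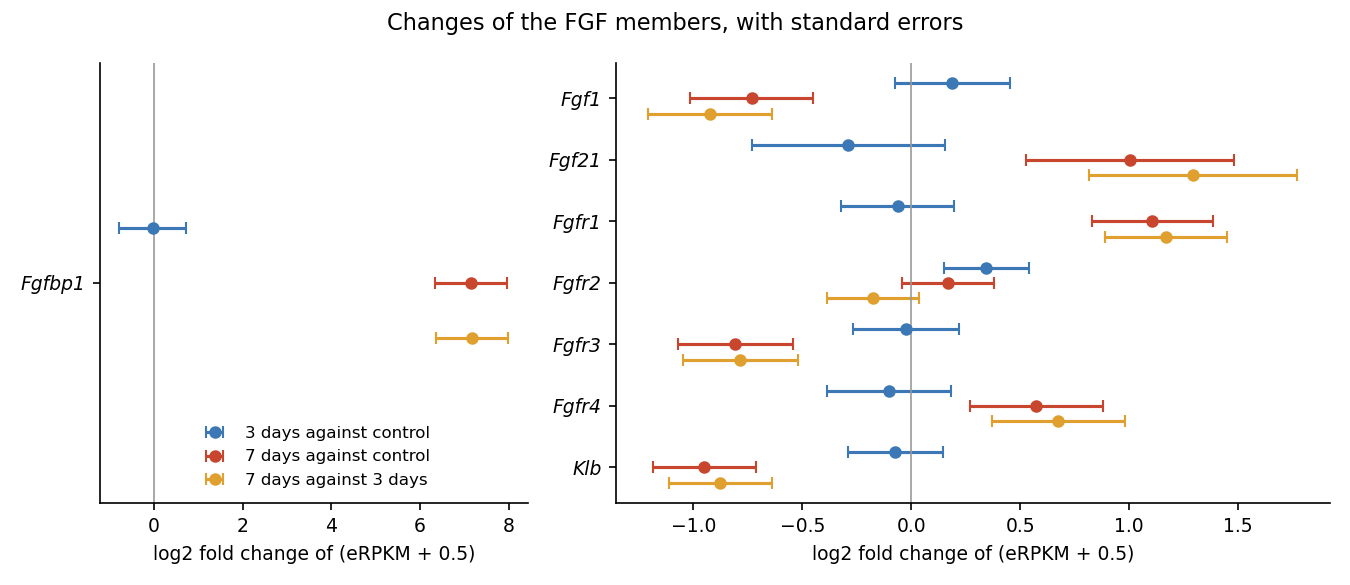
Log2 fold changes of (eRPKM + 0.5) for the 8 genes in 3 comparisons from the limma fit of all 11 livers; points are estimates and bars 1 standard error, with Fgfbp1 on an axis of its own. At 3 days no estimate of the 7 genes on the right goes beyond 0.34 on either side, and at 7 days Fgf1, Fgfr3 and Klb lie to the left and Fgf21, Fgfr1 and Fgfr4 to the right.

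The summed level of the 4 receptors stayed in one range while its make-up differed. The sum was 64.8 ± 12.3 eRPKM in controls (SD, n = 4), 70.3 ± 11.03 at 3 days (n = 4) and 68.8 ± 8.53 at 7 days (n = 3). Fgfr3 made up 35.0% ± 6.42 of it in controls, 31.3% ± 2.99 at 3 days and 18.7% ± 6.19 at 7 days, and the ranges of shares did not overlap between 7-day livers (15.0 to 25.8%) and the others (27.0 to 41.3%). Fgfr1 went from 2.90 to 6.79% in controls and 3.64 to 5.45% at 3 days to 9.23 to 13.9% at 7 days. Fgfr4 took 18.0 to 22.4% in controls and 24.7 to 34.6% at 7 days, although a 3-day liver reached 26.2%. The share of Fgfr2, the largest part in each group's mean, was 39.8% ± 3.99, 46.6% ± 6.05 and 42.0% ± 7.28.

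Klb and Fgfr4 act as a pair, and their ratio of eRPKM levels moved from 3.29 ± 0.460 in controls (SD, n = 4; 2.92 to 3.93) and 3.74 ± 1.91 at 3 days (n = 4; 1.76 to 6.01) to 1.13 ± 0.229 at 7 days (n = 3; 0.910 to 1.37). The highest 7-day ratio lay below the lowest ratio of any other liver. These shares and ratios restate the levels above and are given without a test.

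**Figure D3:**
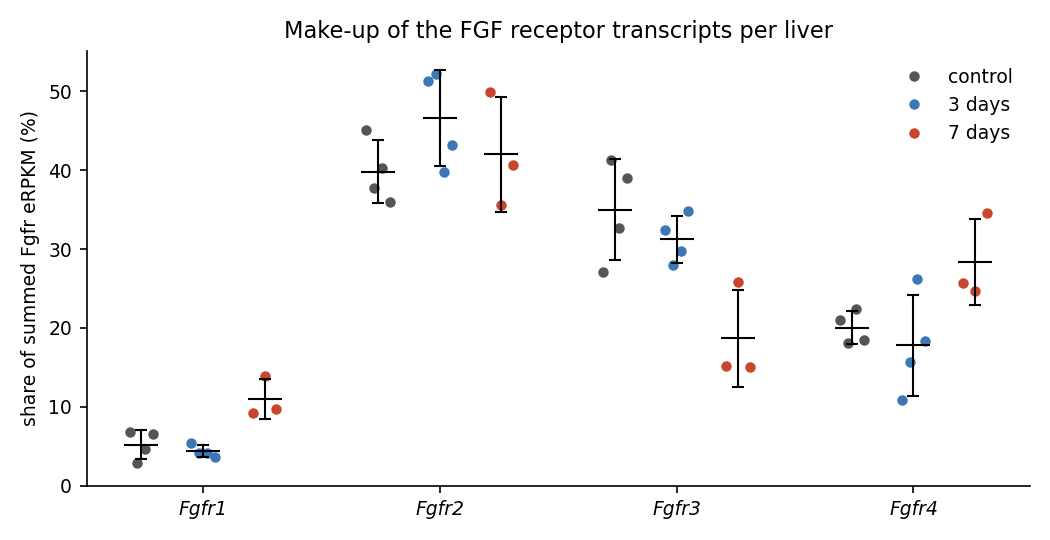
Share of each receptor in the summed eRPKM of Fgfr1 to Fgfr4 (percent, axis from 0) in control, 3-day and 7-day livers; points are livers, the tick is the group mean and bars are 1 SD. The mean share of Fgfr3 is 35.0% in controls and 18.7% at 7 days, and that of Fgfr1 is 5.21% and 10.95%.

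The other genes of the pathway were taken from 9 lists of 96 genes, of which 78 passed the filter. At 3 days none of the 78 was called. At 7 days 18 were called higher and 10 lower than controls (23.1% and 12.8% of those tested, beside 18.0% and 5.77% of all genes). Against 3-day livers 16 were called higher and 9 lower (20.5% and 11.5%, beside 14.0% and 5.31% of all genes). Fgf22 is in both counts of higher genes and Spred3 in that against 3-day livers. These genes passed the filter only through their 7-day livers. The median change of the 78 was 0.15 against controls, below the median of all genes at 0.26. The rise of Gpc3 in these livers was known when the lists were written, so it is no independent evidence.

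Ligands other than Fgf1 were scarce in these livers, including Fgf21 as given above. The 20 listed here leave out Fgf1 and Fgf21. Of 20 listed, 19 had a read in at least 1 liver, Fgf3 was at 0 in all 11, and 7 passed the filter (Fgf2, Fgf7, Fgf9, Fgf11, Fgf12, Fgf13 and Fgf22), none of them above 1.93 eRPKM in any liver. The others with a read (Fgf4, Fgf5, Fgf6, Fgf8, Fgf10, Fgf14, Fgf15, Fgf16, Fgf17, Fgf18, Fgf20 and Fgf23) reached at most 1.20 eRPKM. Among the 7-day livers each ligand with a read except Fgf2 and Fgf8 was highest in liver 2. The maxima of 1.93 (Fgf9) and 1.20 eRPKM (Fgf18) are from that liver. Fgf17 and Fgf23 had 6 and 7 reads in it and 0 in the other 7-day livers. The cause was not tested. Fgf15, the intestinal hormone that signals to Fgfr4, had 1 read in 1 liver. Of the 7, Fgf22 alone was called, beside 18.0% of all genes called higher than controls. Fgf22 was at 0.690, 1.24 and 0.696 eRPKM in 7-day livers against at most 0.237 in controls and 0 at 3 days, from at most 8 reads in a liver. It passed the filter through its 7-day livers alone, so its call and its difference of 1.19 from controls are a description only.

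Among the remaining receptors and binding proteins, Fgfbp3, a relative of Fgfbp1, rose to 3.71, 4.09 and 2.91 eRPKM at 7 days from a mean of 0.414 in controls and 0.820 at 3 days. Its change was 2.17 against controls (adjusted p = 2.00e-04 in limma) and 1.69 against 3-day livers (adjusted p = 0.00153), or 1.02 and not called with quantile normalization. Fgfrl1, a receptor without a kinase domain, was at 40.2 to 42.4 eRPKM at 7 days, above all controls (15.3 to 32.4) and 3-day livers (15.6 to 32.7). At 0.88 against controls (adjusted p = 0.0168) it was not called. Kl, the co-receptor of Fgf23, was at most at 0.857 eRPKM.

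The heparan sulfate proteoglycans, which hold ligands at the surface and in the matrix, went both ways. Of 10 tested, 4 were called higher than controls and 2 lower, beside 18.0% and 5.77% of all genes. Gpc3, a glypican of fetal liver, was at 88.8, 82.0 and 78.5 eRPKM at 7 days against 0.275, 0.845, 1.78 and 4.29 in controls and 0.671, 1.48, 1.94 and 1.17 at 3 days. Its rise was 5.51 (SE 0.48, adjusted p = 6.81e-06 in limma). The matrix proteoglycan Agrn rose by 1.97 and Hspg2 (perlecan) by 1.15, and the syndecan Sdc3 by 1.77, while Gpc1 fell by 1.46 and Sdc4 by 0.68. The call of Sdc4 was lost with size factors (-0.95) and with quantile normalization (-0.16). Gpc4 was at 36.3 eRPKM at 7 days and 39.4 in controls (adjusted p = 0.697). Of the enzymes that build or trim heparan sulfate, 3 of 10 were called higher than controls (Ext1, Ext2 and Hs2st1), or 30% beside 18.0% of all genes. Sulf2, which removes sulfate groups, rose by 2.06 over 3-day livers (adjusted p = 0.00276 in limma). Against controls Sulf2 was at 1.02 (adjusted p = 0.0738) and was not called, with 3-day livers at -1.04 (adjusted p = 0.297).

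Inside the cell, of 11 adaptors Gab1 (1.26), Ptpn11 and Cbl (1.09) were called higher than controls and the exchange factor Sos1 lower (-0.99). These were 27.3% and 9.09%, beside 18.0% and 5.77% of all genes. Of 10 members of the RAS-ERK cascade Hras and Nras were called higher, or 20%, near the share of all genes. The median change of the cascade was 0.26, equal to that of all genes to 2 decimals.

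Of 14 tested feedback and response genes of ERK signalling, 4 were called higher than controls and none lower, or 28.6% beside 18.0% of all genes called higher. The feedback inhibitor Spry1 was at 20.6, 17.8 and 22.7 eRPKM at 7 days against 5.49, 5.52, 4.69 and 0.934 in controls (2.36, adjusted p = 0.00121 in limma). The transcription factors Etv5 (2.06), Egr1 (1.98) and Etv1 (1.10) also rose, with 7-day livers above all others in each case, although Etv1 was not called with size factors (0.86) or quantile normalization (0.44). Against 3-day livers Spred3 was called as well (1.51), but not with quantile normalization (1.001). Spred3 would not have passed the filter without its 7-day livers, so its call is a description only. Members that were not called included Spry4, with a mean of 4.43 eRPKM at 7 days and 7.95 in controls, and Dusp6, with 66.0 and 34.4 eRPKM (1.04, adjusted p = 0.0153). The median of the 14 was 0.76 against controls, beside 0.26 for all genes.

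Of 6 listed genes of bile acid handling, 5 were called lower than controls at 7 days and none higher, beside 5.77% of all genes called lower. The list was drawn up as genes downstream of Fgfr4 and Klb, which need not hold for each gene. The part of Fgfr4 and Klb in these changes was not tested. Cyp7a1, the rate-limiting enzyme of bile acid synthesis, was at 15.1, 10.9 and 15.0 eRPKM at 7 days. It was at 123, 145, 62.5 and 179 eRPKM in controls and at 128, 142, 109 and 174 at 3 days. The groups did not overlap, and the difference was -3.09 from controls (SE 0.30, adjusted p = 1.20e-05 in limma) and -3.28 from 3-day livers. The bile acid importer Slc10a1 (-2.05), the repressor Nr0b2 (-1.98), the exporter Abcb11 (-1.73) and the bile acid receptor Nr1h4 (-0.67) were lower too. Cyp8b1 had a mean of 63.6 eRPKM at 7 days and 138 in controls (-0.90, adjusted p = 0.0948) and was not called. Nr0b2, which represses Cyp7a1, and Cyp7a1 were thus both lower.

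Of 7 regulators of Fgf21, none was called higher than controls at 7 days and 2 were called lower, beside 18.0% and 5.77% of all genes. Ppara, the fatty acid sensor, was at 47.7 eRPKM at 7 days and 122 in controls (-1.35, adjusted p = 7.03e-05 in limma), and its partner Creb3l3 was at -0.93. All 28 pathway genes called against controls kept their direction with size factors and with quantile normalization, and 23 and 24 of them respectively kept the call. Lost were Sdc4, Ext1, Ext2, Hras and Etv1 with the former and Sdc4, Ext2, Hs2st1 and Etv1 with the latter.

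**Figure D4:**
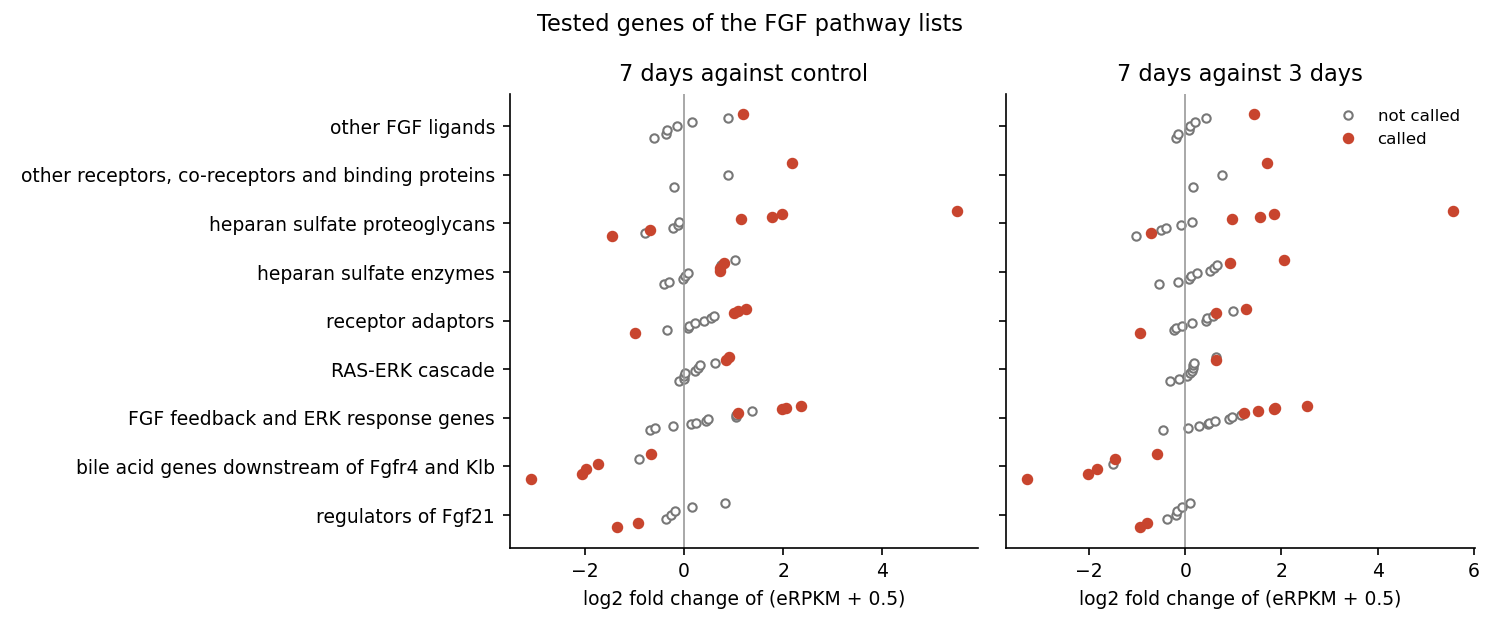
Log2 fold changes of (eRPKM + 0.5) of the 78 tested genes in 9 FGF pathway lists, at 7 days against controls (left) and against 3-day livers (right); each point is a gene, filled where it was called. The bile acid list lies to the left of 0 with 5 of 6 genes called, and Gpc3 stands at 5.51 and 5.57.

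**Figure D5:**
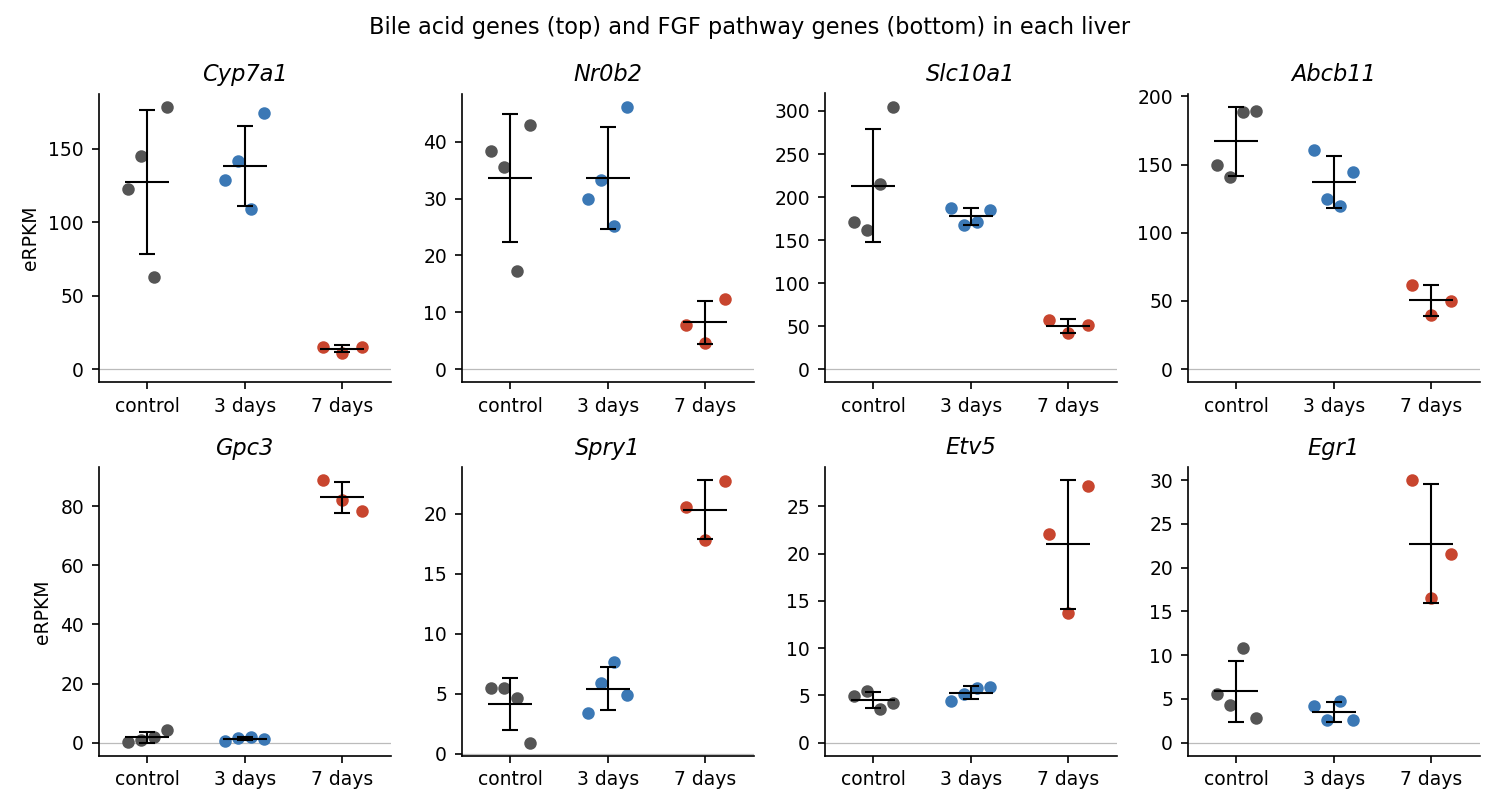
Level (eRPKM) of 4 bile acid genes (top) and of Gpc3, Spry1, Etv5 and Egr1 (bottom) per liver; points are livers, the tick is the group mean and bars are 1 SD. In all 8 panels the 3 7-day livers lie outside the range of the 8 other livers, and control and 3-day livers overlap.

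Marker genes of some cell types differed at 7 days as well. The counts below stand beside 18.0% of all genes called higher than controls and 5.77% called lower. Of 5 macrophage markers measured, 4 were called higher than controls, and their summed level was 651 to 729 eRPKM at 7 days against 179 to 368 in controls and 208 to 399 at 3 days. Of 7 hepatocyte markers 3 were called lower, with sums of 1106 to 1282 eRPKM at 7 days, 1468 to 3888 in controls and 1750 to 1987 at 3 days. Reads of Alb hardly followed depth (2417 to 3102 in controls, 2840 to 2934 at 7 days), nor did those of Apoa1, while those of Hnf4a did. Alb was at 918 eRPKM in control liver 4, the shallowest library, and 268 in control liver 2. The part of depth in these sums was not tested. Of 7 cholangiocyte markers 1 was called higher, with sums of 67.8 to 123 eRPKM at 7 days, 42.9 to 53.4 in controls and 44.6 to 87.1 at 3 days. Spp1 alone was at 49.9 to 96.2 eRPKM at 7 days. Stellate and fibroblast markers summed to 114 to 137 eRPKM at 7 days, 168 to 228 in controls and 138 to 283 at 3 days, and 1 of 8 was called lower. Endothelial markers summed to 209 to 246 eRPKM at 7 days, within the 3-day range of 148 to 270, and to 124 to 220 in controls, with 2 of 7 called higher than controls. Markers of squamous epithelium, where Fgfbp1 is well known, summed to 2.76 to 5.34 eRPKM at 7 days and 1.76 to 6.02 in controls, those of exocrine pancreas to at most 1.73 in either group, and lymphocyte markers to at most 6.17. Of these lists 2 of 6, 1 of 6 and 4 of 4 markers passed the filter and none was called, which says little of the first 2. No marker was at 0 in all livers and none of any list was called at 3 days. The part of cell composition in the changes of Fgfr1, Klb and the other genes was not tested.

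The 5 genes whose profile over the 11 livers was most like that of Fgfbp1 (Pearson's r of log2(eRPKM + 0.5)) were 2900011O08Rik, the collagen hydroxylase P4ha2, S100a11, Gpc3 and the leukocyte integrin Itgam, with r of 0.972 to 0.982. All 5 had their highest control value in control liver 4, as Fgfbp1 did, where they stood at 5.16% (Gpc3) to 25.9% (P4ha2) of their 7-day means. Choosing genes by their likeness to Fgfbp1 favours such a peak, so it is no separate observation on that liver. The 5 most like Fgfr4 were Bcr, Cpsf1, Usp19, Snrpd3 and Khsrp (r of 0.965 to 0.987). The livers share group, depth and sex between them, and the correlations are a description with no test.

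The genes lie on 5 mouse chromosomes in GENCODE M1 on build mm9, the build named by the submitters. Fgfbp1 (ENSMUSG00000048373.7) is at 44370104 to 44373001 on chromosome 5, minus strand, and the same chromosome holds Fgfr3 (34064373 to 34079716, plus) and Klb (65739625 to 65775242, plus). Fgf21 is at 52869277 to 52870860 on chromosome 7, minus strand, Fgfr4 at 55254001 to 55270120 on chromosome 13, plus strand, Fgfr1 at 26624126 to 26686186 on chromosome 8, plus strand, and Fgf1 at 38998327 to 39089058 on chromosome 18, minus strand. Fgfr1 has 2 records of this name, and an exon of it overlaps the antisense lincRNA Gm16159. The record of Fgfr2 (137305965 to 140315033 on chromosome 7, minus strand) includes a long transcript that shares exon sequence with Ctbp2. Reads were aligned as unstranded, so reads in those shared stretches cannot be assigned, and which annotation the counts used is not given in the sources used here.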

How the data were processed

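RNA-seq libraries of total RNA from homogenized livers were sequenced as read pairs by the authors, aligned to mm9 with TopHat2 2.0.8 and counted. The processing notes of the submitters also list featureCounts 1.4.5-p1, SAMtools and DESeq2. The deposited table gives each liver's level as eRPKM, an RPKM (reads scaled to exon length and library size) computed by the authors. Its deposited columns of the authors' DESeq2 comparison at 7 days (a mean signal per gene, its log2 change and the adjusted p-value) were not used. There were 0 columns of other samples, and 4 rows with repeated symbols were left out.

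The 8 genes and the pathway and marker lists were chosen with earlier results of these data known. Groups came from the labels. Values were tested as log2(eRPKM + 0.5) with limma 3.58.1 (R 4.3.3; lmFit and eBayes with trend, all 11 livers in 1 fit, no covariate) on the 14240 genes that reached 0.5 eRPKM in 3 or more livers, adjusted by Benjamini-Hochberg. Calls used the limits of the study, an adjusted p under 0.01 and a log2 fold change beyond 0.5. Single genes also had a two-sided exact permutation test over livers. Named beside the 8 genes were, of each comparison, up to 10 called list genes with the largest rises and 10 with the largest falls whose groups did not overlap and whose mean was at least 1 eRPKM, every listed ligand, co-receptor and binding protein with a read, and the 5 genes most correlated with Fgfbp1 and with Fgfr4. Other list genes (Cyp8b1, Gpc4, Spry4, Dusp6, Spred3, Ext1, Ext2, Hs2st1, Ptpn11, Hras and Nras) were named after their values were seen.

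All 177553 values above 0 were whole multiples of 1 read, within 0.1 read, which gave the depth. Replicate numbers did not pair livers: the correlation of deviations was -0.222 to 0.269 in 10 same-numbered pairs and over 0.1 in 2. In simulated data on 14277 genes, 112 of 197 genes changed at 7 days against controls were called with 5 false calls. The simulation used a fixed size of change and a fixed spread and held no difference by sex. It thus does not give the error rate in these livers. The 27 alternatives changed the pseudocount, filter, scaling, variance model, samples, covariates or threshold, or left out a liver. Tables and figures were made with Python 3.11.15 and matplotlib 3.10.9.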

Additional observations from a re-analysis of the deposited data

Results flagged for a closer look

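In 3 of 16 sets of 4 livers (8 genes in control and in 3-day livers) 1 liver lay far from the rest by Dixon's ratio of its gap to the whole range, past the 95% limit for 4 values. The sets were Fgfbp1 in controls (0.96, control liver 4 at 5.35 eRPKM), Fgfr1 in 3-day livers (0.871, liver 4 at 2.23 eRPKM) and Fgfr2 in controls (0.869, control liver 4 at 17.2 eRPKM). Chance gives about 1 such set in 20. Control liver 4 was the shallowest library.

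The time points differed, by limma over all genes, in 1 of the FGF genes tested and in the 19 pathway genes named by the rule, whose livers did not overlap. Log2 differences of 7-day from 3-day livers were 1.17 for Fgfr1, 5.57 for Gpc3, 2.54 for Egr1, 2.06 for Sulf2, 1.86 for Spry1, 1.85 for Etv5, 1.84 for Agrn, 1.69 for Fgfbp3, 1.56 for Sdc3, 1.27 for Cbl and 1.23 for Etv1. On the lower side they were -3.28 for Cyp7a1, -2.03 for Nr0b2, -1.83 for Slc10a1, -1.45 for Abcb11, -0.94 for Ppara, -0.93 for Sos1, -0.80 for Creb3l3, -0.71 for Sdc4 and -0.58 for Nr1h4. All 25 pathway genes called against 3-day livers kept their direction under both scalings. With size factors 21 kept the call, and with quantile normalization 17 did. Of the pathway genes in this list, Sdc4 lost it with both, and Fgfbp3, Spry1, Etv1, Nr1h4 and Ppara with quantile normalization. Between both time points lie the sex of the livers and their depth, whose parts were not tested apart from the alternatives given under the processing.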

How the results depend on the processing

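Depth, sex and group could not be fully separated, since all 7-day livers were female and deep. With 3 or 4 livers a group an interval on the log2 scale spans about as much as the changes of Fgf21, Fgfr4 and Fgfr2. The label suffix MF (3-day livers 1 and 4, 7-day liver 2) has no stated meaning. Fgfbp1 outside the 7-day livers rests on at most 12 reads per liver.

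Among the values of the 8 genes under the 27 alternatives, 591 kept direction and side of the limit (or stayed within the spread), 14 lost a call, 16 gained one, 8 moved by more than the spread between livers and 19 tested values changed sign, all 19 at 3 days against controls, where nothing was called. Fgfr2 at 7 days against controls, which has no test, ran from -0.15 to 0.24. The sign changes were, in female livers only, Fgfbp1 at 1.97, Fgf1 at -0.0037, Fgfr1 at 0.01 and Fgfr4 at 0.04; with the suffix MF as a covariate, Fgfbp1 at 0.24 and Fgfr4 at 0.15; and for Fgfbp1 also limma-voom on reads (0.63), depth as a covariate (0.29) and a pseudocount of 0.1 (0.09). With 1 liver left out the 3-day values ran from -0.60 to 0.81 for Fgfbp1, -0.20 to 0.08 for Fgfr1, -0.13 to 0.15 for Fgfr3, -0.52 to 0.19 for Fgf21, -0.35 to 0.17 for Fgfr4 and -0.28 to 0.06 for Klb.

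The counts of called pathway genes moved most in female livers only, to 9 higher and 6 lower against controls and to 7 and 3 against 3-day livers, in fits of fewer samples. With depth as a covariate 9 were higher in either comparison. With an adjusted p under 0.05 and any fold change 25 were higher against 3-day livers. Leaving out 1 liver gave 11 to 21 higher and 7 to 10 lower against controls and 8 to 20 and 5 to 11 against 3-day livers, the lower ends without a 7-day liver (8 without liver 2 or 3, 9 without liver 1), and 0 at 3 days.

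Of the 7 genes tested against 3-day livers, where Fgfr1 alone was called, 0 were called in female livers, without a filter and with the replicate block. The count was 2 with the suffix MF (Fgf1 and Fgfr1), limma-voom (Fgfr1 and Klb), depth (Fgf1 and Klb) and quantile normalization (Fgfr3 and Klb), 3 with size factors (Fgf1, Fgfr3 and Klb) and 4 with an adjusted p under 0.05. Against controls 1 passed without a filter and with the replicate block, beside 3. The replicate number as a block, which does not pair these livers, also gave 10 pathway genes higher against 3-day livers and Fgfr1 an adjusted p of 0.0248 in limma. With 1 liver left out, 1 to 3 of the 8 genes passed against controls and 0 to 2 of the 7 against 3-day livers (2 without control liver 4). Only 1 passed against controls without 7-day liver 1 or 3 or control liver 2 or 3, and 0 against 3-day livers without 7-day liver 1 or 3, 3-day liver 2 or 4 or control liver 3. All 14 calls lost were those of Fgfr1 against 3-day livers, including the fits without 3-day liver 1, 2 or 4, any 7-day liver or control liver 3 (adjusted p of 0.0107 to 0.0411 in limma). The cause of these changes was not tested.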
